A study of Rattus norvegicus with 8 samples.

Results

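The genes described are the 10 AMPA receptor auxiliary subunits *Shisa6*, *Shisa7*, *Shisa8*, *Shisa9*, *Cacng2*, *Cacng3*, *Cacng8*, *Cnih2*, *Cnih3* and *Gsg1l*, out of 22601 genes measured in rat hippocampus. They were found by their NCBI GeneID, and all 10 were present and passed the filter on low values. The set was chosen by gene family with the FPKM differences of the same libraries between the 3 groups already known, so every difference of its members between Con., PTZ and Q808 is a description, given with its standard error and without a p-value.

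AMPA receptors are the glutamate-gated channels that carry most fast excitatory transmission in the brain, and their pore is built from the subunits encoded by *Gria1* to *Gria4*. Auxiliary subunits bind to this pore, bring the receptor to the surface and the synapse, and set how fast it opens, closes and desensitizes. The transmembrane AMPA receptor regulatory proteins (TARPs) are encoded by *Cacng* genes and anchor receptors to scaffold proteins of the postsynaptic density, cornichons slow receptor deactivation, Shisa proteins alter desensitization and short-term plasticity, and GSG1L slows recovery from desensitization. In the hippocampus, *Cacng8* and *Cnih2* are known for high levels in principal neurons.

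All animals were wild-type Wistar rats of 180 to 220 g, in groups of 3 (Con.), 3 (PTZ) and 2 (Q808), and each rat gave its own library. Pentylenetetrazole (PTZ) provokes seizures by blocking inhibitory GABA-A receptors, and its repeated use at low doses kindles rats, that is, makes later doses more and more effective. The PTZ and Q808 groups were given 14 injections of 35 mg/kg PTZ at intervals of 48 h over 28 days and a dose of 60 mg/kg on the last day, while Con. rats were given saline. For a further 28 days, Q808 rats took the anticonvulsant compound Q808 daily at 30 mg/kg by gavage, and Con. and PTZ rats took its solvent. The PTZ and Q808 rats then had a further low dose of PTZ before the hippocampus of both sides was taken, which the Con. rats did not have. The age of the rats is not given in the sources used here.

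Levels are FPKM, sequenced fragments scaled to transcript length and to the mapped fragments of the library. Each value is thus a share of its library, and a comparison between libraries also depends on what else they hold. *Mbp*, for example, ran from 1240 FPKM in Con.-2 to 7880 in Q808-1. Other scalings between libraries were among the alternatives run. Differences are on the log2(FPKM + 0.1) scale, which understates the change of genes with low FPKM such as *Shisa8*. A gene was called in a comparison when the limma test across all 15593 genes gave an unadjusted p-value under 0.05 and the change was more than 1.5-fold. With Benjamini-Hochberg adjustment and all libraries, limma left 0 genes under 0.05 for PTZ against Con. (589 unadjusted), 0 for Q808 against PTZ (341 unadjusted) and 1 for Q808 against Con. (667 unadjusted). For PTZ against Con. without Con.-3, PTZ-3 and Q808-1, which are set apart below, it left 140 (3047 unadjusted). The 3 comparisons share libraries, so their values are not independent of each other. Steps of single fragments in the low FPKM values put the depth of the libraries at 0.854 to 1.19 of that of Con.-1.

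Con.-3, PTZ-3 and Q808-1 stood apart from the other 5 libraries in the regions and cells their RNA came from. The summed FPKM of 6 striatum markers was 331 to 746 in these 3 libraries and 10.2 to 21.1 in the other 5, and none of the markers was at 0. Markers of dentate granule cells summed to 13.6 to 20.1 against 72.5 to 116 FPKM and those of hippocampal pyramidal cells to 52.1 to 136 against 229 to 282 FPKM, with *Tdo2* and *Fibcd1* at 0 in some libraries. Oligodendrocyte markers summed to 6960 to 13800 against 2680 to 4460 FPKM. The sums of cerebral cortex (22.4 to 31.6 against 14.2 to 30.1 FPKM) and thalamus markers (24.3 to 28.4 against 18.4 to 26.6) overlapped between the sets. So did those of choroid plexus (91.8 to 492 against 277 to 6440) and GABAergic interneurons (438 to 582 against 272 to 463). Gene by gene, 4 of 6 cerebral cortex markers were higher in the 3 libraries without overlap. Of 4 tested dentate granule cell markers, *Prox1* and *C1ql2* were lower without overlap. *Dsp* and *Plk5* overlapped, and *Plk5* was slightly higher in the 3 libraries (mean log2 difference 0.26). Of 6 pyramidal cell markers, 5 were lower without overlap, and *Pou3f1* overlapped. Of 5 thalamus markers 2 were higher and 1 lower without overlap. Of the 6 genes listed as GABAergic interneuron markers 1, *Slc32a1*, was higher without overlap, while *Gad1*, *Gad2*, *Pvalb*, *Sst* and *Vip* overlapped. Of 6 choroid plexus markers 0 were apart. Of all genes, 24.8% did not overlap. The labels call all 8 libraries hippocampus, and each group holds 1 of the 3. The members' differences between groups are therefore also given without them. In tissue RNA of this kind, fewer cells of a type and less RNA per cell cannot be told apart.

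Promoter sequences are shown for the members on which the results turn, *Shisa8* and *Cacng3*, which were called between groups, and *Shisa6* and *Gsg1l*, the members lowest and highest in the 3 libraries relative to the other 5. Each run holds the 250 bases before the annotated gene start, 5′ to 3′ on the gene's strand, from RefSeq on the GRCr8 build, which may not be the start used in hippocampus. Capitals mark matches, on either strand, to the cAMP response element TGACGTCA, its half-site TGACG, the AP-1 site TGANTCA, the E-box CANNTG, the GC box GGGCGG and the TATA box TATAAA, where the half-site also lies inside the full element.
Shisa8, chr7:115607954-115608203, minus strand: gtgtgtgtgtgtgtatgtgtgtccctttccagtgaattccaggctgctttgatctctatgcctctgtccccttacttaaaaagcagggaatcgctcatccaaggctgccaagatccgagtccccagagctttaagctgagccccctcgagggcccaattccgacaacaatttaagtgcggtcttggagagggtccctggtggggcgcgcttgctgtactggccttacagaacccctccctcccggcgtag
Cacng3, chr1:186632312-186632561, plus strand: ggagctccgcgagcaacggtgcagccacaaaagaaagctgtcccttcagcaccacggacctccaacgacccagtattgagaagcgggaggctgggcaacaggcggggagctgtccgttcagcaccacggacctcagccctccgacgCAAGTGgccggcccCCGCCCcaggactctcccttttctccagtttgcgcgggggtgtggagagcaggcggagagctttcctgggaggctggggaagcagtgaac
Shisa6, chr10:51691157-51691406, minus strand: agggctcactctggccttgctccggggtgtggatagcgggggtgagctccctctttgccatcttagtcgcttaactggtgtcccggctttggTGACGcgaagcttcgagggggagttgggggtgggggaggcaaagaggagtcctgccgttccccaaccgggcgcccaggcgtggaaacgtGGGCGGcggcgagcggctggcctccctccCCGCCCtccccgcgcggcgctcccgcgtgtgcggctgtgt
Gsg1l, chr1:190084948-190085197, minus strand: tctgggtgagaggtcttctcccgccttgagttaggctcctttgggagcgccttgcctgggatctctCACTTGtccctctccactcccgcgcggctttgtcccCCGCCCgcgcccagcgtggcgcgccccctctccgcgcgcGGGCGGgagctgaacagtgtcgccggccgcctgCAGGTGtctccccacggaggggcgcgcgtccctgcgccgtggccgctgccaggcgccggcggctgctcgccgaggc

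The *Shisa8* window held none of the 6 motifs and had 55.6% G and C with 9 CpG, near the median of 52% and 6 CpG over 27457 gene windows. The other 3 windows shown were richer, with 64.8% G and C and 16 CpG in *Cacng3*, 69.6% and 24 in *Shisa6* and 74% and 31 in *Gsg1l*. *Cacng3* had 1 E-box and 1 GC box, *Shisa6* 1 half-site and 2 GC boxes, and *Gsg1l* 2 E-boxes and 2 GC boxes. Of the 9 members with a window (*Shisa9* had none), 6 held an E-box and 6 a GC box, motifs found in 65.2% and 32.4% of all windows. The half-site was in 1 member (19% of windows), the TATA box in 1, *Cacng2* (13.1%), and the full element (1.7%) and the AP-1 site (6.36%) in 0.

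Per length of transcript, *Cnih2* was the most abundant auxiliary subunit mRNA, with a mean of 136 FPKM over the 8 libraries (71.9 to 217), followed by *Cacng8* with 109 FPKM (37.6 to 169) and *Cacng3* with 55.5 FPKM (34.7 to 80.5). *Shisa7* (25.9 FPKM), *Shisa9* (22.6), *Shisa6* (20.4), *Cnih3* (16.2), *Cacng2* (14.2) and *Gsg1l* (10.3) lay close together. *Shisa8*, a little-studied relative of the other Shisa genes, was lowest at 1.56 FPKM (0.592 to 3.83) and ranked last in all 8 libraries. Of the neighbours in this order, the ranges of *Cacng3* and *Shisa7* and of *Gsg1l* and *Shisa8* did not overlap, and the ranges of all other neighbours did. *Cnih2* still exceeded *Cacng8* within each of the 8 libraries, while *Cacng8* exceeded *Cacng3* in the 5 libraries with low striatum markers and in 1 of the 3 others. *Shisa9* exceeded *Shisa6* in 0 of the 5 and in 3 of the 3.

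**Figure D1:**
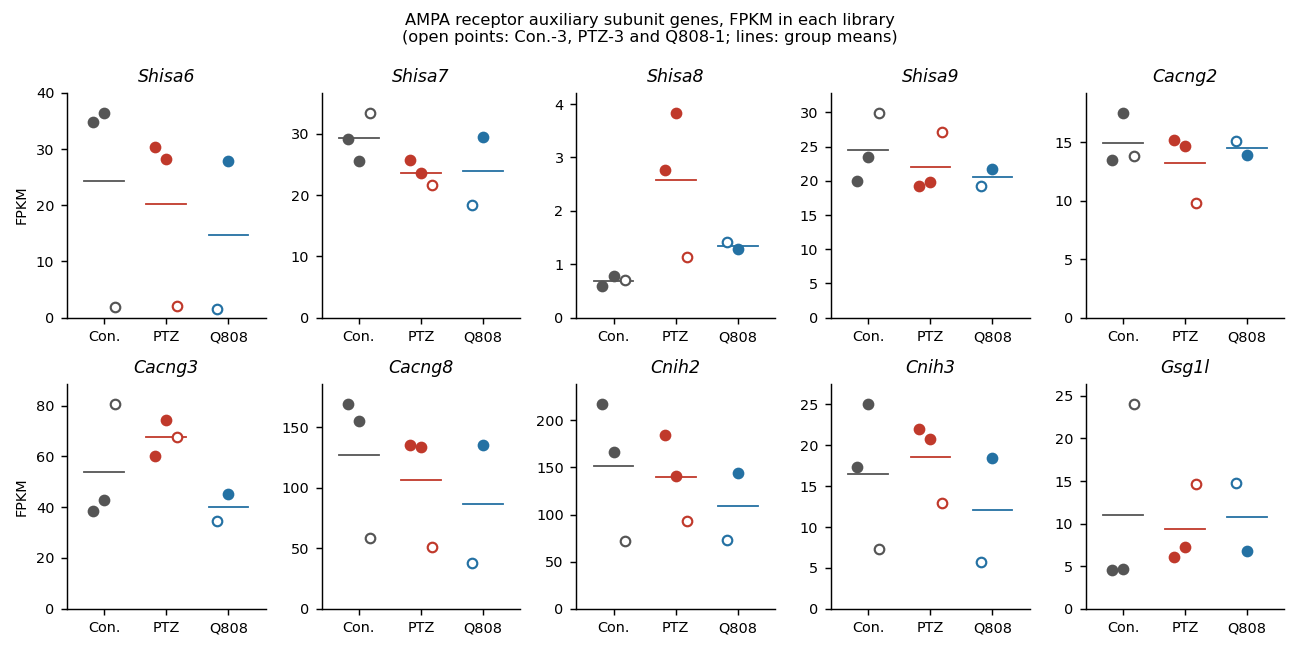
FPKM (linear axes from 0) of the 10 members in each library, by group (n = 3, 3 and 2), with lines at the group means and open points for Con.-3, PTZ-3 and Q808-1. The open points lie lowest in each group for Shisa6, Cacng8, Cnih2 and Cnih3 and highest for Gsg1l, while for Shisa8 all 3 PTZ libraries lie above all 3 Con. libraries, PTZ-3 (1.13 FPKM) by the smallest margin.

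The make-up of the auxiliary subunit mRNA differed between the 3 libraries with high striatum markers and the other 5. *Shisa6*, whose protein holds AMPA receptors at synapses, measured 34.8 and 36.4 FPKM in Con.-1 and Con.-2, 30.4 and 28.2 in PTZ-1 and PTZ-2 and 27.9 in Q808-2. In Con.-3, PTZ-3 and Q808-1 it measured 1.80, 2.00 and 1.53 FPKM. The sets were far apart, with a mean log2 difference of -4.08, or 16.9-fold lower in the 3 libraries.

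*Cacng8*, the TARP of hippocampal principal neurons, measured 169, 155, 135, 134 and 135 FPKM in Con.-1, Con.-2, PTZ-1, PTZ-2 and Q808-2, and 58.3, 51.4 and 37.6 FPKM in Con.-3, PTZ-3 and Q808-1. It was thus 2.99-fold lower in the 3 libraries, with no overlap. *Cnih2*, a cornichon, measured 217, 166, 184, 141 and 144 FPKM in the 5 libraries and 71.9, 93.1 and 73.3 FPKM in the 3, which is 2.13-fold lower. Its relative *Cnih3* measured 17.3, 25.0, 22.0, 20.8 and 18.5 FPKM against 7.33, 12.9 and 5.70 FPKM, 2.50-fold lower. *Gsg1l*, a claudin-like auxiliary protein, went the other way, with 4.50, 4.63, 6.10, 7.30 and 6.80 FPKM against 24.0, 14.6 and 14.8 FPKM, 2.98-fold higher in the 3 libraries.

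The other 5 members overlapped between the sets, with mean log2 differences of -0.46 for *Shisa8*, -0.23 for *Cacng2*, -0.17 for *Shisa7*, 0.18 for *Cacng3* and 0.26 for *Shisa9*. In all, 5 of 10 members did not overlap between the sets, 4 lower and 1 higher in the 3 libraries, while 24.8% of all 15593 genes did not overlap. The median log2 difference was -0.34 over the members and 0.101 over all genes. Among the pore subunits, which encode the channel itself, *Gria1* (126 to 159 FPKM against 28.5 to 71.1) and *Gria2* (116 to 151 against 58.0 to 110.0) were lower in the 3 libraries without overlap, and *Gria3* and *Gria4* overlapped. Of 11 further genes of the *Cacng*, Shisa and cornichon families, not all of them TARPs, *Cacng1*, *Cacng4* and *Cnih4* were higher without overlap. *Cacng6* was lower without overlap, and all 4 are named here after their values were seen. Levels of *Cacng1* (0 to 2.15 FPKM) and *Cacng6* (0.0548 to 0.636 FPKM) were low. *Cacng4*, a TARP outside the 10 members, measured 28.8 to 60.8 FPKM in the 3 libraries and 11.6 to 19.7 in the 5.

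**Figure D2:**
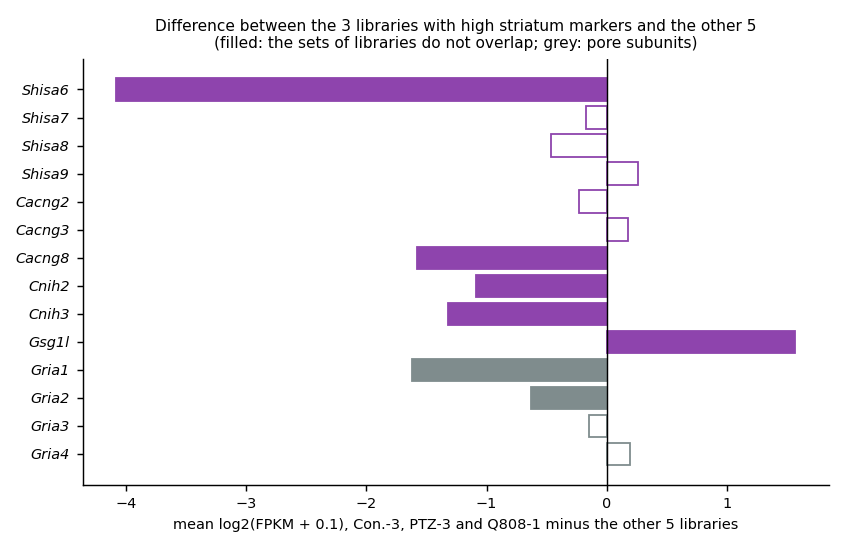
Bars give, per gene, the mean log2(FPKM + 0.1) of Con.-3, PTZ-3 and Q808-1 minus that of the other 5 libraries, filled where the sets of libraries do not overlap, with pore subunits in grey. Shisa6 (-4.08), Cacng8 (-1.58), Cnih3 (-1.32) and Cnih2 (-1.09) are lower and Gsg1l (1.57) is higher in the 3 libraries.

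As shares within a library, *Shisa6* made up 34.7% to 42.2% of the summed FPKM of *Shisa6* to *Shisa9* in the 5 libraries and 2.74% to 3.86% in the 3. *Cacng8* made up 60.1% to 76.4% of the FPKM of *Cacng2*, *Cacng3* and *Cacng8* in the 5 libraries and 38.2% to 43.1% in the 3, where *Cacng3* held 39.7% to 52.8%. Within the 5 libraries the *Cacng3* share was 17.5% and 19.9% in Con.-1 and Con.-2, 28.7% and 33.3% in PTZ-1 and PTZ-2 and 23.3% in Q808-2. Both PTZ libraries thus had the highest *Cacng3* share of this set, and within the 3 libraries Con.-3 and PTZ-3 were alike at 52.8% and 52.6%. The summed FPKM of the 10 members per summed FPKM of the 4 pore subunits varied little, from 1.33 to 1.57 in the 5 libraries and from 1.24 to 1.58 in the 3.

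**Figure D3:**
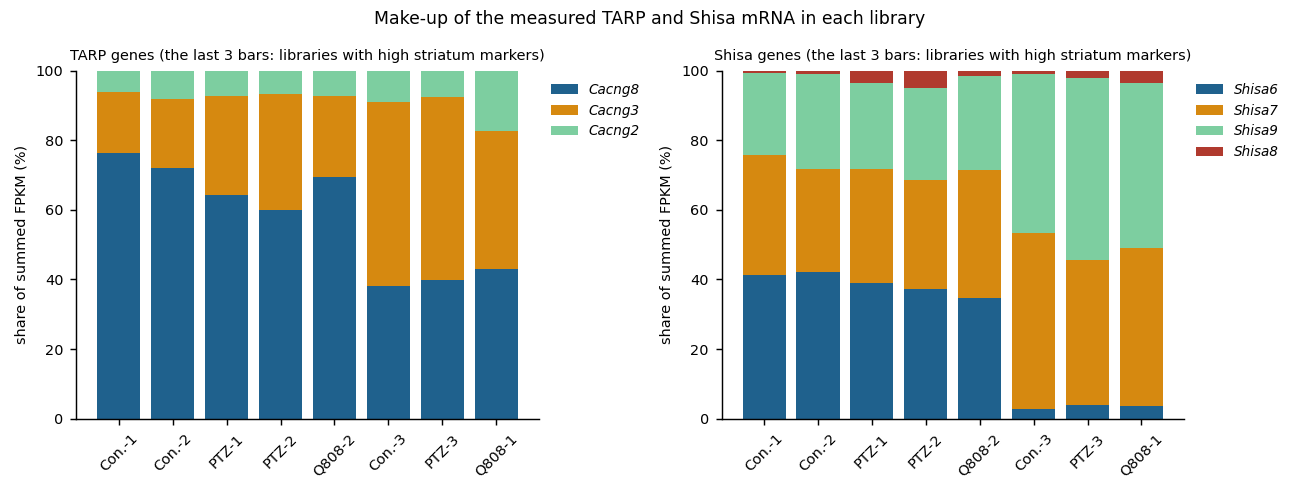
Stacked bars give each gene's share (%) of the summed FPKM of Cacng2, Cacng3 and Cacng8 (left) and of Shisa6 to Shisa9 (right) in each library, with Con.-3, PTZ-3 and Q808-1 as the last 3 bars. In these 3 libraries the Shisa6 share is at most 3.86% and the Cacng8 share at most 43.1%, and the Shisa8 share is largest in PTZ-2 (5.07%).

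PTZ against Con. compares kindled rats with rats that had no PTZ, and *Shisa8* was the member with the largest difference. *Shisa8*, annotated as a part of the AMPA receptor complex, measured 0.592, 0.780 and 0.710 FPKM in Con.-1 to Con.-3 and 2.77, 3.83 and 1.13 FPKM in PTZ-1 to PTZ-3. All 3 PTZ libraries lay above all 3 Con. libraries, and 9.15% of all genes did not overlap between these groups. PTZ-3 was much closer to them than PTZ-1 and PTZ-2. The means were 0.694 ± 0.0945 FPKM (SD, n = 3) and 2.58 ± 1.36 FPKM (SD, n = 3), a log2 difference of 1.60 ± 0.45 (SE), or 3.04-fold. Without the 3 libraries the log2 difference was 2.11 ± 0.28 (SE, 2 libraries per group), and between PTZ-3 and Con.-3 it was 0.60. It was called under all 18 settings tried, from 1.00 to 2.11. Choroid plexus markers also differed in the 5 libraries, where all 6 were called lower in PTZ with a median log2 difference of -2.58, and their mean log2 level was 4.32 and 4.49 in Con.-1 and Con.-2 and 2.15 and 1.61 in PTZ-1 and PTZ-2. With all libraries 0 of the 6 were called, at 91.8 to 2530 FPKM summed in Con. and 277 to 492 in PTZ, and none was at 0. Of 4 dentate granule cell markers, 1, *Plk5*, was called lower with all libraries (-1.24 ± 0.23, SE). Of 6 interneuron markers, 1, *Vip*, was called higher (0.74 ± 0.31, SE), and the remaining marker lists had 0 called. Of all genes, 1.69% were called higher and 0.84% lower. Cerebral cortex markers also differed in the 5 libraries, where 3 of 6 were called higher in PTZ (median log2 difference 0.44), beside 4.1% of all genes. All 6 interneuron markers were above 0 there (median 0.36), with 0 called. The part of these markers in the *Shisa8* difference was not tested.

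*Cacng3* encodes a TARP that raises the surface level of AMPA receptors. It measured 38.6, 42.8 and 80.5 FPKM in Con.-1 to Con.-3 and 60.3, 74.3 and 67.8 FPKM in PTZ-1 to PTZ-3. The groups overlapped because of Con.-3, the highest of all libraries. The pooled log2 difference was 0.40 ± 0.28 (SE) and was not called. It was 0.72 ± 0.13 (SE) and called without the 3 libraries and likewise 0.72 and called without Con.-3 alone, but -0.25 between PTZ-3 and Con.-3. In the 5 libraries the cerebral cortex markers were higher in PTZ, as *Cacng3* was, while the choroid plexus markers were lower. The mean log2 level of the cortex markers was 0.33 and 0.55 in Con.-1 and Con.-2 and 0.99 and 1.18 in PTZ-1 and PTZ-2. Of these markers 3 of 6 were called higher, where 4.1% of all genes were called higher. Summed, they ran from 14.2 to 31.6 FPKM in Con. and from 22.4 to 30.1 in PTZ, and none was at 0. The part of either list in the *Cacng3* difference was not tested.

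The other 8 members were not called for PTZ against Con., and their groups overlapped. Their log2 differences ran from -0.31 ± 0.15 (SE) for *Shisa7* to 0.30 ± 0.45 (SE) for *Cnih3*. *Shisa7*, which encodes an auxiliary subunit also known to bind GABA-A receptors, measured 29.1, 25.6 and 33.4 FPKM in Con. and 25.7, 23.6 and 21.6 FPKM in PTZ, so that PTZ-1 lay above Con.-2 by a small margin. For *Shisa6* the pooled difference of -0.14 had a standard error of 1.43, and without the 3 libraries it was -0.28 ± 0.09 (SE). *Gsg1l* had a log2 difference of 0.12 ± 0.67 (SE) with all libraries and 0.54 ± 0.16 (SE) without the 3, where it was just under the 1.5-fold limit at 1.45-fold. *Cacng2* (stargazin, the founding TARP) and *Shisa9* (CKAMP44) differed by -0.19 ± 0.21 and -0.14 ± 0.20 (SE). The log2 differences in the 5 libraries were -0.27 ± 0.08 for *Cacng8*, -0.24 ± 0.18 for *Cnih2*, -0.15 ± 0.12 for *Shisa9*, -0.14 ± 0.11 for *Shisa7*, -0.04 ± 0.15 for *Cacng2* and 0.04 ± 0.18 for *Cnih3* (SE), and none was called. In all 1 of 10 members was called, 1 higher and 0 lower, while 2.53% of all genes were called, 1.69% higher and 0.84% lower. Without the 3 libraries 2 of 10 were called, both higher, while 9.81% of all genes were called, 4.1% higher and 5.71% lower. When same-numbered libraries were blocked, 1 of 10 members, *Shisa8*, was called, and 3.95% of all genes, 2.45% higher and 1.5% lower. The median log2 difference was -0.09 over the members and -0.041 over all genes, and without the 3 libraries -0.09 and -0.111.

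Q808 against PTZ compares kindled rats with and without the compound, and *Cacng3* was the only member called with all libraries. It measured 60.3, 74.3 and 67.8 FPKM in PTZ-1 to PTZ-3 and 34.7 and 45.2 FPKM in Q808-1 and Q808-2. Both Q808 libraries lay below all 3 PTZ libraries, and 15.6% of all genes did not overlap between these groups. The means were 67.4 ± 7.0 FPKM (SD, n = 3) and 40.0 ± 7.44 FPKM (SD, n = 2), a log2 difference of -0.76 ± 0.19 (SE), or 1.69-fold lower in Q808. Without Q808-1 the log2 difference was -0.57 and without all 3 libraries -0.56, and neither was called. Both fits leave Q808-2 alone in its group, as does every Q808 comparison without the 3 libraries. Standard errors and calls of such fits hold no spread between Q808 rats. Over the 17 settings the *Cacng3* difference ran from -0.95 to -0.56 and was called in 15. The summed cerebral cortex markers overlapped between these groups, at 22.4 to 30.1 FPKM in PTZ and 22.8 to 30.9 in Q808, and within the 5 libraries their mean log2 level was 1.13 in Q808-2 beside 0.99 and 1.18 in PTZ-1 and PTZ-2.

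*Shisa8* measured 2.77, 3.83 and 1.13 FPKM in PTZ and 1.41 and 1.29 FPKM in Q808. The groups overlapped because of PTZ-3, which was the lowest of the 5. The pooled log2 difference was -0.73 ± 0.54 (SE) and was not called, while without PTZ-3 it was -1.22 and called. Without all 3 libraries, with Q808-2 alone in its group, it was -1.28. Between Q808-1 and PTZ-3 it was 0.30, so that the direction differed between the sets of libraries. In the 5 libraries all 6 choroid plexus markers were called higher in Q808, with a median log2 difference of 4.12 and a mean log2 level of 6.02 in Q808-2 beside 2.15 and 1.61 in PTZ-1 and PTZ-2. With all libraries 0 of the 6 were called, at 277 to 492 FPKM summed in PTZ and 163 to 6440 in Q808. *Plk5*, 1 of 4 dentate granule cell markers, was called higher in Q808 with all libraries (0.96 ± 0.34, SE), and the remaining marker lists had 0 called. Of all genes 1.36% were called higher. The part of these markers in the *Shisa8* and *Cacng3* differences was not tested.

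Among the remaining members, *Cnih3* had a log2 difference of -0.81 ± 0.51 (SE), which without Q808-2 was -1.65 and called and without Q808-1 was 0.03. *Shisa6* (-0.85 ± 1.56), *Cacng8* (-0.45 ± 0.65) and *Cnih2* (-0.38 ± 0.39, all SE) were lower in the mean of Q808, where 1 of 2 libraries had high striatum markers against 1 of 3 in PTZ. Without the 3 libraries their differences were -0.07, 0.01 and -0.16. *Gsg1l* (0.21), *Cacng2* (0.15), *Shisa9* (-0.09) and *Shisa7* (-0.02) lay within 1 standard error of 0, and without the 3 libraries they were at 0.03, -0.11, 0.16 and 0.26. In all 1 of 10 members was called, 0 higher and 1 lower, while 1.92% of all genes were called, 1.36% higher and 0.564% lower. With quantile normalization the 212 higher and 88 lower genes became 132 higher and 140 lower. Without the 3 libraries 1 of 10, *Shisa8*, was called lower, while 9.26% of all genes were called, 7.06% higher and 2.2% lower. The median log2 difference was -0.42 over the members and 0.097 over all genes, with 2 members above 0 and 8 below. In the 5 libraries it was -0.09 over the members and 0.157 over all genes, with 4 members above 0 and 6 below.

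Q808 against Con. asks how far treated kindled rats were from rats without PTZ. *Shisa8* measured 0.592, 0.780 and 0.710 FPKM in Con. and 1.41 and 1.29 FPKM in Q808, with both Q808 libraries above all Con. libraries, and 20% of all genes did not overlap between these groups. The log2 difference was 0.87 ± 0.29 (SE), or 1.83-fold, and it was called. The call was lost without Con.-1 (0.78), Con.-2 (0.95), Q808-1 (0.81) or Q808-2 (0.93) and without the 3 libraries (0.83 ± 0.37, SE), although the size changed little. *Cacng3* had a difference of -0.37 ± 0.35 (SE) with all libraries and 0.15 ± 0.12 (SE) without the 3, with 38.6 and 42.8 FPKM in Con.-1 and Con.-2 beside 45.2 in Q808-2. *Gsg1l* differed by 0.33 ± 0.82 (SE), and by 1.12 with a call when Con.-3 was left out. *Shisa7* differed by -0.32 ± 0.25 (SE), and by -0.66 with a call when Q808-2 was left out. In the 5 libraries *Gsg1l* differed by 0.57 ± 0.20, *Shisa7* by 0.11 ± 0.14, *Cnih2* by -0.40 ± 0.20, *Shisa6* by -0.35 ± 0.11, *Cacng8* by -0.26 ± 0.12, *Cnih3* by -0.17 ± 0.26, *Cacng2* by -0.15 ± 0.21 and *Shisa9* by 0.01 ± 0.15 (SE). Choroid plexus markers there had a median log2 difference of 1.65, cerebral cortex markers 0.53, thalamus markers 0.20 and dentate granule cell markers -0.43. Pyramidal cell markers stood at -0.21, striatum markers at -0.27, and oligodendrocyte and interneuron markers at 0.07. With all libraries 1 of 6 pyramidal cell markers, *Pou3f1*, was called lower without overlap (-0.69 ± 0.26, SE), and the other marker lists had 0 called. Their part in the called *Shisa8* difference was not tested. In all 1 of 10 members was called, 1 higher and 0 lower, while 3.46% of all genes were called, 3.07% higher and 0.391% lower. With quantile normalization the 479 higher and 61 lower genes became 285 higher and 155 lower, and *Shisa8* was not called at 0.59. Without the 3 libraries 0 of 10 were called, while 4.71% of all genes were called, 3.91% higher and 0.802% lower. The median log2 difference was -0.34 over the members and 0.045 over all genes, with 2 members above 0 and 8 below. In the 5 libraries it was -0.07 over the members and 0.048 over all genes, with 5 members above 0 and 5 below.

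**Figure D4:**
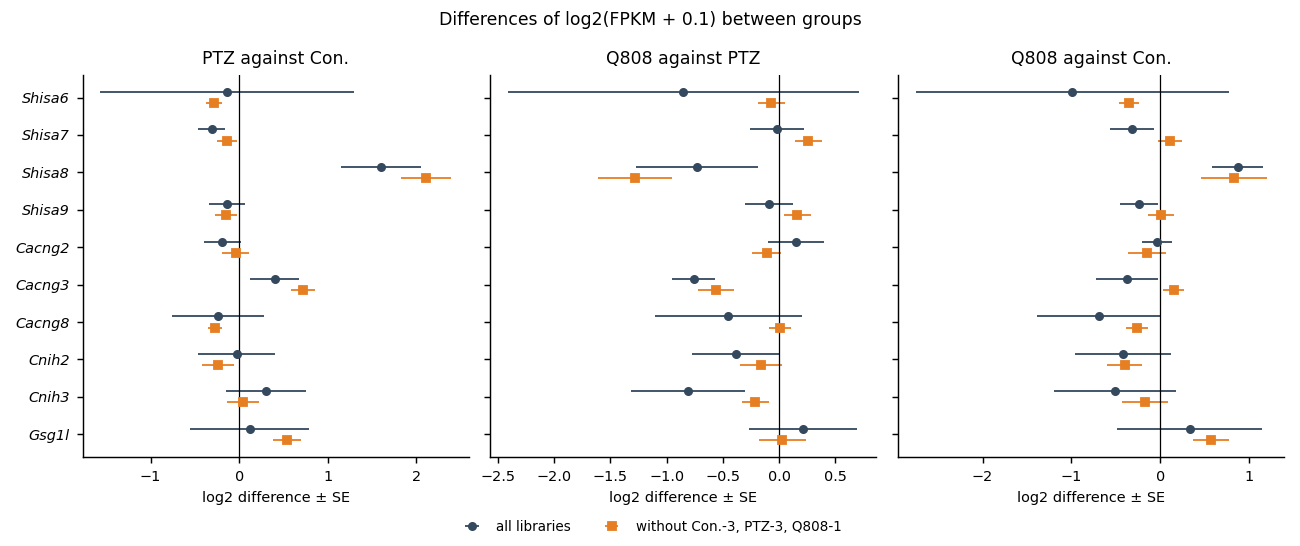
Points give the difference of mean log2(FPKM + 0.1) between groups for each member with its standard error, with all libraries (circles) and without Con.-3, PTZ-3 and Q808-1 (squares). The widest error bars belong to Shisa6 in all 3 panels with all libraries (SE 1.43, 1.56 and 1.76), and the Shisa8 difference is the largest above 0 for PTZ against Con. (1.60) and Q808 against Con. (0.87).

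The other genes of the AMPA receptor system were taken from 5 lists with 49 measured genes (*Lrrtm1* was not matched). None of the 4 pore subunits was called in any comparison, with log2 differences from -0.34 to 0.03 for PTZ against Con. Of the 49 genes, 3 were called higher and 1 lower for PTZ against Con., where 1.69% of all genes were called higher and 0.84% lower. For Q808 against PTZ 0 were called (1.92% of all genes), and for Q808 against Con. 1 was called higher (3.07% of all genes). In the 5 libraries Q808-2 is the only Q808 library, and the *Olfm2* log2 difference for Q808 against Con. was 0.68. The genes called there for Q808 against PTZ are named below with the shares of all genes. *Olfm2*, a secreted noelin found in AMPA receptor complexes, measured 11.1, 14.2 and 15.1 FPKM in Con. and 21.5, 27.6 and 26.0 FPKM in PTZ, a rise of 0.89 ± 0.17 (SE) on the log2 scale without overlap (limma unadjusted p = 0.00118, adjusted p = 0.999). It was 0.95 ± 0.18 (SE) and called without the 3 libraries. *Lrrtm2*, a synaptic adhesion protein that holds AMPA receptors, measured 16.3, 18.8 and 25.7 FPKM in Con. and 10.9, 11.0 and 13.4 FPKM in PTZ, and fell by 0.76 (SE 0.20, limma unadjusted p = 0.00638, adjusted p = 0.999). Its difference was -0.68 ± 0.12 (SE) and called without the 3 libraries, and was not called without Con.-3 alone. *Vwc2l*, a secreted constituent of the complex, measured 0.703, 2.08 and 1.43 FPKM in Con. and 2.73, 3.19 and 2.10 FPKM in PTZ, so that the groups were apart only by the gap between Con.-2 and PTZ-3. Its log2 difference was 0.98 ± 0.41 (SE, limma unadjusted p = 0.0467, adjusted p = 0.999), and 1.21 ± 0.48 (SE) and called without the 3 libraries. The call was lost with no low filter, in a joint fit of the 3 groups, with quantile or median ratio scaling, and without Con.-1, Con.-3, PTZ-1 or PTZ-2.

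*Nptx2* encodes a secreted pentraxin that clusters AMPA receptors and is induced by neuronal activity. It measured 21.2, 20.4 and 20.6 FPKM in Con., 231, 348 and 21.1 FPKM in PTZ and 22.9 and 22.0 FPKM in Q808. It was high in PTZ-1 and PTZ-2 alone, and PTZ-3 lay within the spread of the Con. libraries. The log2 difference for PTZ against Con. was 2.52 ± 0.95 (SE, limma unadjusted p = 0.0329, adjusted p = 0.999), and without the 3 libraries it was 3.76 ± 0.19 (SE). The call was lost with no low filter and without any 1 of Con.-1, Con.-2, Con.-3, PTZ-1 and PTZ-2. For Q808 against PTZ the log2 difference was -2.41 ± 1.13 (SE) and not called. Without the 3 libraries, with Q808-2 alone in its group, it was -3.68. *Shisa3*, a Shisa gene known for inhibiting Wnt signalling, was higher in Q808 than in Con. by 1.26 ± 0.47 (SE, limma unadjusted p = 0.0399, adjusted p = 0.901), at levels of 0.194 to 1.05 FPKM. It was not called without the 3 libraries (1.29), with the replicate block, with quantile normalization, with a pseudocount of 1, or without Con.-2, Con.-3, Q808-1 or Q808-2.

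Without the 3 libraries, 5 of the 49 genes were called higher and 3 lower for PTZ against Con., where 9.81% of all genes were called. Besides *Olfm2*, *Lrrtm2*, *Vwc2l* and *Nptx2* they were *Arc*, *Nrn1*, *Grip2* and *Shisa2*, named here after their values were seen. *Arc*, an immediate early gene whose protein removes AMPA receptors from synapses, measured 30.4 and 34.3 FPKM in Con.-1 and Con.-2, 246 and 326 FPKM in PTZ-1 and PTZ-2 and 26.8 FPKM in Q808-2. In the other set Con.-3 had 89.6 FPKM, PTZ-3 had 26.1 and Q808-1 had 48.6, so that its direction turned between the sets. *Nrn1*, a small neuronal protein induced by activity, measured 132, 126 and 17.4 FPKM in Con.-1 to Con.-3 and 232, 346 and 48.3 FPKM in PTZ-1 to PTZ-3, higher in PTZ within each pair of same-numbered libraries. Its pooled log2 difference of 1.24 ± 0.98 (SE) was not called. When same-numbered libraries were blocked, *Nrn1* was called higher and *Grip2*, a scaffold that binds AMPA receptors, lower in PTZ, which made 6 pathway genes. For Q808 against PTZ without the 3 libraries, *Grip2* was called higher and *Nptx2*, *Arc*, *Nrn1* and *Lrrtm4*, the last also named after its values were seen, lower, where 7.06% of all genes were called higher and 2.2% lower.

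The genes whose profiles over the 8 libraries were nearest to a member were sought among tested genes with an SD of at least 0.5 times the member's, by the mean absolute difference of centred log2(FPKM + 0.1). For *Shisa8*, with an SD of 0.88, they were *Gadd45g* (0.19), *Arid5a* (0.20) and *Coq10b* (0.21), out of 5600 genes. *Gadd45g*, a stress-inducible gene, measured 10.1, 6.31 and 8.76 FPKM in Con., 28.4, 46.8 and 13.7 FPKM in PTZ and 18.3 and 14.7 FPKM in Q808. As for *Shisa8*, PTZ-2 was highest, PTZ-1 next and the Con. libraries lowest, which follows from choosing the gene by its profile. For *Cacng3*, with an SD of 0.46, they were *Klf8* (0.09), *Coro2a* (0.12) and *Nyap2* (0.15), out of 11131 genes. *Klf8* was near the added 0.1, at 0.0825 to 0.313 FPKM. *Coro2a*, an actin-binding coronin, measured 2.26, 2.85 and 5.85 FPKM in Con., 3.34, 4.71 and 4.51 FPKM in PTZ and 2.75 and 3.04 FPKM in Q808. The points of each profile are 8 libraries that share the division by striatum markers.

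**Figure D5:**
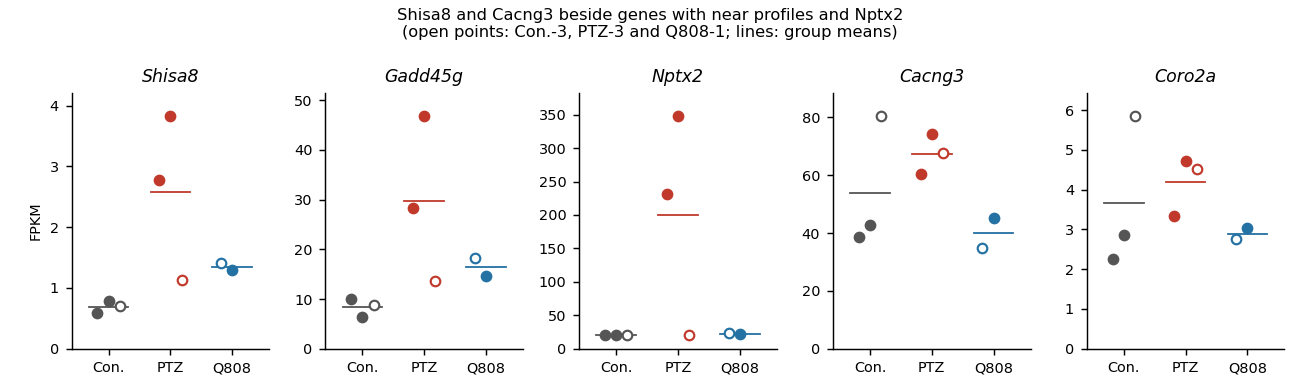
FPKM (linear axes from 0) of Shisa8, Gadd45g, Nptx2, Cacng3 and Coro2a in each library by group, with lines at the group means and open points for Con.-3, PTZ-3 and Q808-1. PTZ-1 and PTZ-2 are the highest libraries for Shisa8, Gadd45g and Nptx2, and Con.-3 is the highest for Cacng3 (80.5 FPKM) and Coro2a (5.85 FPKM).

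In the gene annotation that came with the values, all 10 members carried the term regulation of AMPA receptor activity, which 23 tested genes carried in all, and 9 of 10, all but *Gsg1l*, the term AMPA glutamate receptor complex (30 tested genes). Postsynaptic density was given for 7 members and 264 genes. Terms also followed the families. Dendritic spine membrane and regulation of short-term neuronal synaptic plasticity were each given for the 4 Shisa genes and 15 genes in all, and neurotransmitter receptor internalization for the 3 TARPs and 8 genes in all.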

How the data were processed

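RNA from the hippocampus of 8 rats was measured by RNA sequencing, in 3 Con., 3 PTZ and 2 Q808 libraries grouped by the titles in the labels. The authors trimmed reads with Trimmomatic and deposited 1 FPKM value per gene from Cufflinks. Per the submitters' processing notes HISAT2, Bowtie2, StringTie, HTSeq, DESeq and SAMtools were also used. The genome build and versions are not given in the sources used here. Counting error cannot be computed from FPKM, so precision is the spread between rats.

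Symbols were taken from RefSeq (GRCr8), which matched 20633 of 22601 genes. Genes averaging 0.1 FPKM or more (15593) were tested on log2(FPKM + 0.1) with limma 3.58.1 in R 4.3.3, each comparison on its own groups, by empirical Bayes with a trend, and called as stated in the report. The procedure was tested on simulated data. Python 3.11.15 with numpy 2.4.6, pandas 2.3.3 and matplotlib 3.10.9 was used for the rest.

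The members, lists, tests and alternatives were chosen with earlier results of these data known, and Con.-3, PTZ-3 and Q808-1 were set apart from those results. Named genes were the members, pathway genes called in any comparison, *Gria1* to *Gria4* and the 3 nearest profiles to *Shisa8* and *Cacng3*, and other family and pathway genes are marked as named after their values were seen. Alternatives were pseudocounts of 1 and 0.01, no low filter, a filter at 1 FPKM, a joint fit of the 3 groups, a fit without trend, scaling by quantiles or by median ratios, a replicate block, each library left out, the 3 libraries left out, and the striatum markers as a covariate. Where a fit leaves 1 library in a group, that library is assumed to vary like the other group.

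Libraries of Con. and PTZ with the same number in their titles, which come from different rats, deviated together from their group means across genes (r = 0.212, 0.299 and 0.422 for the numbers 1, 2 and 3), as did Con.-2 and PTZ-1 (0.322). For Q808 and Con. the values were -0.379 and 0.527, and for Q808 and PTZ -0.295 and 0.322, so that numbers did not pair those libraries.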

Additional observations from a re-analysis of the deposited data

How the results depend on the processing

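The call of *Shisa8* for PTZ against Con. held under all alternatives run. No member called with all libraries changed sign in that comparison. Some members called only under certain alternatives did, namely *Cnih3* for Q808 against PTZ (-1.65 to 0.03). For Q808 against Con. they were *Shisa6*, *Shisa7*, *Cacng8*, *Cnih3* and *Gsg1l*. Of the members' values, 169 of 170 (PTZ against Con.), 145 of 160 (Q808 against PTZ) and 148 of 160 (Q808 against Con.) moved by less than the spread between libraries, and 15, 18 and 13 values changed sign. The number of libraries limits all comparisons, and Q808 has 2.

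With all libraries the calls were 395 genes, 1 member and 4 pathway genes (PTZ against Con.), 300 genes, 1 member and 0 pathway genes (Q808 against PTZ), or 540 genes, 1 member and 1 pathway gene (Q808 against Con.). For PTZ against Con., 219 genes were called with a pseudocount of 1, 616 with the replicate block, 617 with striatum markers as a covariate and 1530 without Con.-3, PTZ-3 and Q808-1. Without those 3 libraries 2 members and 8 pathway genes were called, and 2 pathway genes with no low filter. For Q808 against PTZ, 193 genes were called with a mean of at least 1 FPKM, 1894 with the replicate block, 1444 without the 3 libraries and 634 with the covariate. The members called were 2 with the block and 2 with the covariate, and the pathway genes 2 in the joint fit, 6 with the block, 5 without the 3 libraries and 4 with the covariate. For Q808 against Con., 340 genes were called with a pseudocount of 1, 1076 with the replicate block and 1145 with the covariate. The members called were 0 with a pseudocount of 1, in the joint fit, with quantile normalization and without the 3 libraries, 2 with the block and 3 with the covariate. The pathway genes called were 0 with a pseudocount of 1, a mean of at least 1 FPKM or quantile normalization, 2 with median ratios, 3 with the block and 4 with the covariate. For PTZ against Con. the block changed no member's call. The causes were not tested.

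Leaving out 1 library gave 249 (without PTZ-2) to 1135 genes (without PTZ-3), 1 to 2 members and 2 to 6 pathway genes for PTZ against Con. It gave 132 (without PTZ-1) to 1569 genes (without PTZ-3), 0 to 2 members and 0 to 8 pathway genes for Q808 against PTZ, and 279 (without Con.-2) to 1799 genes (without Q808-2), 0 to 2 members and 0 to 10 pathway genes for Q808 against Con.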
